A study of Mus musculus with 12 samples.

Results

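The genes described here are 9 genes of the trophoblast lineage, taken by name out of the 26061 genes of a deposited expression table. They are Cdx2, Elf5, Hand1, Gata3, Gata2, Tfap2a, Tfap2c, Krt8 and Krt18. They are listed by name for their known roles in this lineage. These genes and the lists below were chosen with earlier results of these data known, so the counts called are not independent of the data. The table covers mRNA-seq of mouse embryonic stem cells (ESCs) that lack Tet2, with 12 libraries in 4 groups of 3. Every library comes from cells that were infected with the shRNA shSetdb1, put under puromycin after 48 h and harvested following 3 days of selection. The groups naïve WT and naïve mutant were grown in 2i medium with LIF and inhibitors of MEK (PD0325901) and GSK3 (CHIR99021), and primed WT and primed mutant in serum with LIF. The WT groups are a line that carries wildtype TET2 on a PiggyBac vector, and the mutant groups are a line with the catalytic mutant (H1304Y, D1306A). Each rescue is a single stable line, so TET2 activity cannot be told apart from other differences between the lines, and libraries without SETDB1 depletion were not analysed here. Nothing in the labels says whether the 3 libraries of a group are separate cultures, so p-values measure the spread between these libraries, which may be technical.

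The trophoblast forms the outer layer of the blastocyst, the trophectoderm, and later the fetal part of the placenta. CDX2, GATA3 and the AP-2 factor TFAP2C establish this layer, ELF5 keeps trophoblast stem cells dividing, HAND1 and GATA2 act as these cells turn into giant cells and other placental types, and keratins 8 and 18 pair into the filaments of the trophectoderm, the first epithelium of the embryo. ESCs derive from the inner cell mass and contribute little to this lineage. SETDB1, the histone methyltransferase that was depleted, is known to hold trophectoderm genes such as Cdx2 silent in ESCs. The primed and naïve states are the culture states that serum and 2i give, and the design compares them within each rescue line, and the rescue lines within each medium.

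The libraries hold 8066662 to 21335933 reads in genes. Expression is given as the deposited log2 value, on which a gene with 0 reads has 3.81 in every library, so that differences of genes near that value understate the fold. Setdb1 was at 7.46 to 8.21 in naïve and 7.52 to 8.55 in primed libraries. Tet2 was at 12.73 or more in naïve WT and 11.95 or less in naïve mutant libraries, and at 14.58 or more in primed WT and 13.27 or less in primed mutant libraries. Tet2 RNA was thus also lower in naïve than in primed ESCs. The difference was -1.55 in the WT line (limma, adjusted p = 0.00207) and -1.87 in the mutant line (adjusted p = 5.15e-04). The part of that difference in the comparisons of media was not tested. The 12 markers of pluripotent cells summed to between 57278 and 85206 normalised reads per library, all 12 were tested, and Pou5f1 averaged between 13.15 and 13.61 in the 4 groups. Of markers of other cells that carry AP-2 factors or keratins, the 6 of surface ectoderm and neural crest summed to at most 6.46 normalised reads in any library, with Krt5 and Krt15 at 0 in all 12.

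In mm9, the build of the deposited data, the genes lie on 6 chromosomes. Gata3 spans chr2:9778705-9811661 (minus strand), Tfap2c chr2:172375093-172384122 (plus), Elf5 chr2:103251845-103291146 (plus), Cdx2 chr5:148112381-148118846 (minus), Gata2 chr6:88143885-88157024 (plus), Hand1 chr11:57642207-57646320 (minus) and Tfap2a chr13:40811044-40829192 (minus). Krt8 (chr15:101827142-101834773, minus) and Krt18 (chr15:101858647-101862457, plus) are divergent neighbours, 23.9 kb apart with 0 annotated genes between them. All 9 are protein-coding, with counts summed over exons. The table gives Tfap2a and Tfap2c by their older symbols Tcfap2a and Tcfap2c.

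Promoter sequences are shown for Gata3, Krt8 and Krt18, the 3 genes with the largest tested differences between the media, so that their start regions can be read beside the values. Each runs from 250 bases before to 50 bases after the RefSeq start, was taken from the GRCm38.p6 table and matched letter for letter at 1 place on its chromosome in mm9. Capitals mark matches to the AP-2 motif GCCNNNGGC, which TFAP2A and TFAP2C bind, and to the TATA box TATAAA, on either strand. The Gata3 window is chr2:9800178-9800477 on the minus strand, inside the annotated gene span because a longer transcript starts upstream.
Gata3: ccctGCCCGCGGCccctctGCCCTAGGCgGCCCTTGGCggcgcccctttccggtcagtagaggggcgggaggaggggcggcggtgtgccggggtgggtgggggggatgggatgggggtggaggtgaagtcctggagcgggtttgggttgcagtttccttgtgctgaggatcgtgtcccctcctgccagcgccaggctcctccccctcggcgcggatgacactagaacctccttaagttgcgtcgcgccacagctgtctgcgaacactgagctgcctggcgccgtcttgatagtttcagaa
The Krt8 window is chr15:101834724-101835023 on the minus strand.
Krt8: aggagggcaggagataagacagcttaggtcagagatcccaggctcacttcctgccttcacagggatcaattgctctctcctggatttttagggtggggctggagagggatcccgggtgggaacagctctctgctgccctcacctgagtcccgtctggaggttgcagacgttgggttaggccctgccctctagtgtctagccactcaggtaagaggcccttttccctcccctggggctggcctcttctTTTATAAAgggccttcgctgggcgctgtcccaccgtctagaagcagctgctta
The Krt18 window is chr15:101858397-101858696 on the plus strand.
Krt18: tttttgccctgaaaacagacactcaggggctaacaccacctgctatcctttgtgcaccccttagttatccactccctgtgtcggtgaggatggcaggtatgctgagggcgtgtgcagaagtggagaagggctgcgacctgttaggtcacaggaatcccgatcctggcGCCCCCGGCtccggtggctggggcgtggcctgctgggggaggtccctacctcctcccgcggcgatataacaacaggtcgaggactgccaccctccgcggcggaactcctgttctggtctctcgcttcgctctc
The Gata3 window holds 3 AP-2 matches, the first of which begins at position -246 from the start, and 22 CpG dinucleotides. The Krt18 window holds 1 AP-2 match, from -83 to -75, and 17 CpG. The Krt8 window holds 0 AP-2 matches, 6 CpG and 2 TATA matches on opposite strands that share letters at the start itself. Among 32851 promoter windows of the same length, 16.6% hold an AP-2 match and 13.6% a TATA match, and the median CpG count is 7. Of the 9 genes, 7 had a promoter in the table, in 10 windows, and the others with an AP-2 match were those of Cdx2 and the second window of Gata2, with 1 each. The motifs AGATAA of GATA factors (in 11.2% of all promoters) and GGAATG of TEAD factors (14.7%) were also searched on both strands. The Krt8 window holds 1 GATA match, and 1 window each of Elf5 and Gata2 holds a TEAD match. A match is a run of letters and does not show binding.

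Naïve ESCs were compared with primed ESCs first, within the WT rescue line. Naïve ESCs had less Gata3, Krt18, Krt8, Gata2 and Tfap2c than primed ESCs, and Tfap2a differed by less than the test could call. The 3 remaining genes, Cdx2, Elf5 and Hand1, had too few reads for the fit across genes and are given by their reads. A gene entered the test if its 12-library mean exceeded the 0-read value by 1 or more, which kept 14185 genes and 6 of the 9, and was called at an adjusted p under 0.05 (limma, Benjamini-Hochberg over all genes tested). With WT TET2, 5 of the 9 genes were called, all lower in naïve ESCs, where 35.9% of all tested genes were called and 17.3% were lower. Gata3 met the limit through its primed libraries alone, and without it the count was 4. The 3 naïve and 3 primed libraries did not overlap for 8 of the 9, each lower in naïve, against 24.5% of tested genes (25.5% lay wholly higher), and overlapped for Tfap2a. The 8 include Cdx2, Elf5 and Hand1, which lie outside the tested genes of that share, and Gata3, which had 0 naïve reads. For Cdx2 the order rests on scaling, as given below.

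**Figure D1:**
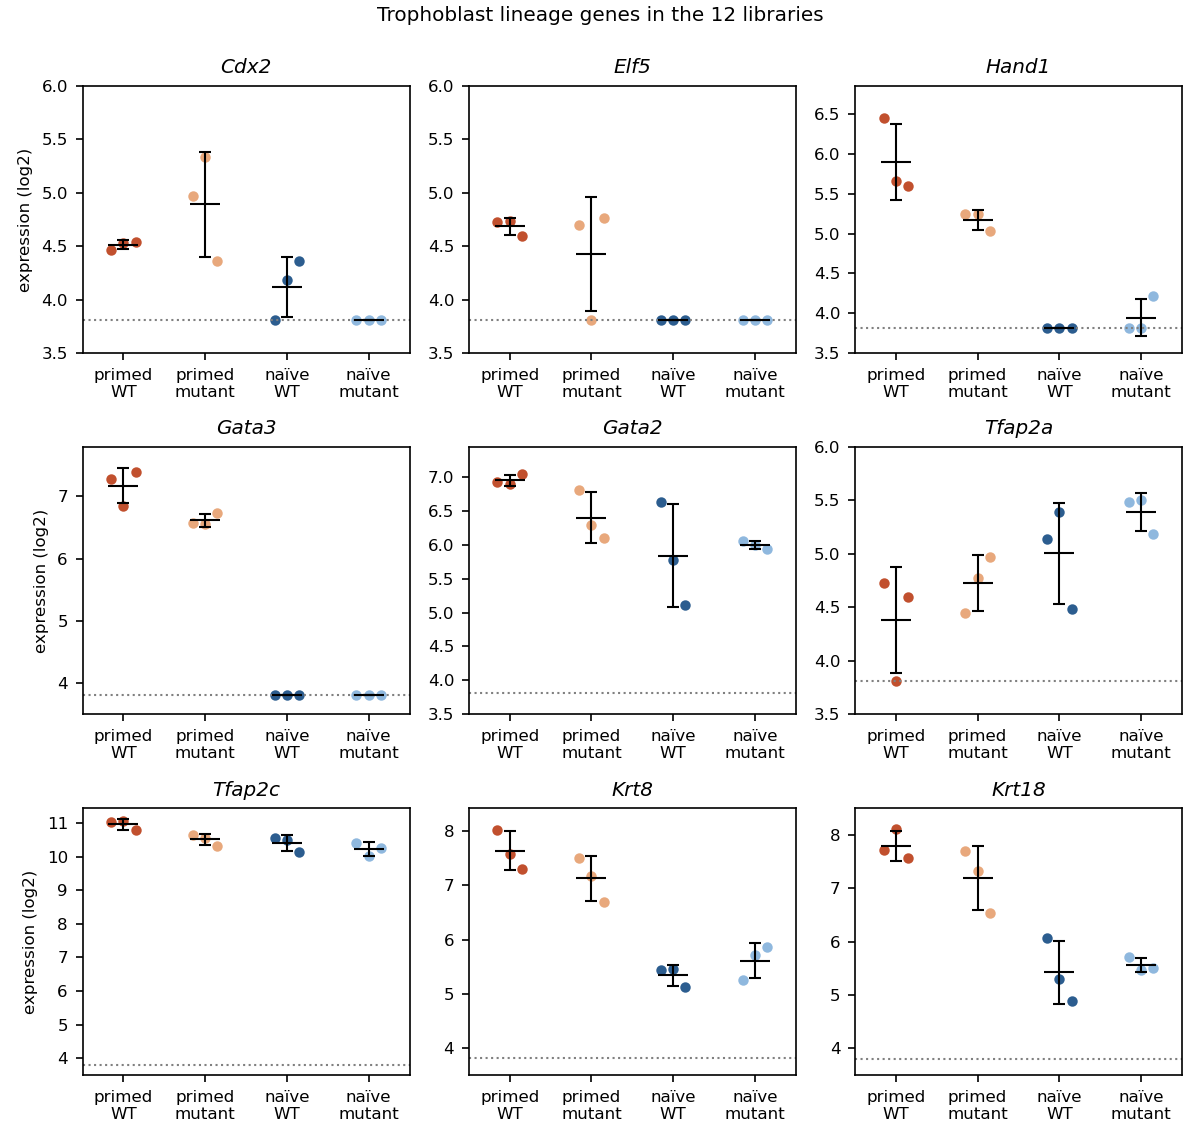
Expression (log2) of the 9 genes in each library, by group, with the mean and SD as black bars (n = 3) and the value of 0 reads as a dotted line at 3.81. Gata3 sits on the dotted line in all 6 naïve libraries, and Tfap2c sits at 10.01 or above in all 12.

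GATA3, which switches on trophectoderm genes beside CDX2, gave the largest contrast. Its 6 naïve libraries had 0 reads each. Primed WT libraries had 87, 74 and 267 reads (log2 values 7.27, 6.85 and 7.40), and primed mutant libraries 50, 63 and 76 reads (6.57, 6.55 and 6.74). Every primed library lay above every naïve one. The difference of naïve from primed ESCs was -3.37 with WT TET2 (limma, adjusted p = 2.53e-09) and -2.81 with mutant TET2 (adjusted p = 2.28e-08). These differences are measured from the value of 0 reads, where the naïve libraries have no spread, so they understate the change and their size is set by that value. Gata3 also entered the fit through its primed libraries alone, so the p-values add no support to the reads. Against a floor of 3 reads over the naïve group, Gata3 was at least 125-fold higher in primed ESCs with WT TET2 and at least 92.5-fold higher with mutant TET2. With each library left out these bounds were 80.5 to 138 and 51.6 to 95.6, the lowest without naïve WT replicate 2 (81.7 without replicate 3) and without naïve mutant replicate 3, since a smaller naïve total raises the floor. Of the 26061 genes, 1 had 0 reads in all 6 naïve libraries and at least 50 reads, the lowest Gata3 count, in each primed library, and that gene was Gata3, whose own count set this limit. In bulk RNA, fewer cells that express a gene and less RNA per cell cannot be told apart. The non-directional libraries do not separate Gata3 from Gm13256, an overlapping transcript on the opposite strand that shares 155 exon bases and had 0 to 12 reads per library.

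GATA2, the relative that acts later in trophoblast, was read in both media. It had 63, 31 and 12 reads in naïve WT libraries (6.64, 5.77 and 5.12) and 65, 77 and 200 reads in primed WT libraries (6.93, 6.90 and 7.05). The naïve libraries lay below the primed ones, and the naïve libraries spread over more than 1 log2 unit, with replicate 3 lowest. The difference was -1.12 (standard error 0.29, limma, adjusted p = 0.00679), and -1.73 when the recovered reads were tested with limma-voom. With mutant TET2 the naïve libraries were between 5.94 and 6.06 and the primed ones at 6.82, 6.29 and 6.10. These did not overlap either, but the difference of -0.40 (95% interval -1.02 to 0.21) was not called (limma, adjusted p = 0.296).

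Of the keratins, Krt8 had values of 5.44, 5.46 and 5.12 in naïve WT libraries and 8.03, 7.59 and 7.31 in primed WT libraries. In the mutant line they were 5.25, 5.71 and 5.87 in naïve and 7.51, 7.18 and 6.69 in primed libraries. In each line the naïve libraries all lay below the primed ones. The difference was -2.30 with WT TET2 (standard error 0.25, limma, adjusted p = 3.19e-06) and -1.52 with mutant TET2 (adjusted p = 2.05e-04). Krt18, which encodes the partner filament, had values of 6.07, 5.31 and 4.89 in naïve WT and 7.71, 8.11 and 7.58 in primed WT libraries, a difference of -2.38 (standard error 0.30, adjusted p = 1.75e-05). In the mutant line it had 5.70, 5.47 and 5.51 in naïve and 7.71, 7.33 and 6.53 in primed libraries, a difference of -1.63 (adjusted p = 6.04e-04). Again no naïve library reached a primed one. Replicate 3 was the lowest primed mutant library for each keratin. Among 14185 genes, Krt18 and Krt8 had the 77th and 91st lowest differences with WT TET2 and the 195th and 242nd with mutant TET2.

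Reads of Krt8 carry a limit of their own. Of the 75-base stretches of its transcript, 41.9% occur elsewhere in mm9 letter for letter, against 7.49% for Tfap2c, 0.597% for Tfap2a and 0% for the other 6 genes. The copy lies in 2 stretches between positions 24142113 and 24143830 of chromosome 7, within the span of Nlrp4e but outside its exons, and the aligner placed a read with several equal positions at 1 of them at random. Nlrp4e itself had 1 to 14 reads per library. Krt18, which has no such copy, differed by amounts close to those of Krt8 in each line.

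Of the AP-2 factors, Tfap2c was called lower in naïve ESCs in the WT line and Tfap2a was called in neither line. Tfap2c was the most abundant of the 9 in every library, with 927 to 3277 reads. It had values of 10.57, 10.51 and 10.15 in naïve WT and 11.04, 11.05 and 10.79 in primed WT libraries, which do not overlap. The difference was -0.55 (standard error 0.16, limma, adjusted p = 0.0156), and the call was lost without naïve WT replicate 3 (adjusted p = 0.0745), primed WT replicate 1 (0.0670) or primed WT replicate 2 (0.0531). With mutant TET2 the values were 10.41, 10.01 and 10.27 in naïve and 10.65, 10.56 and 10.33 in primed libraries, which overlap, and the difference of -0.28 (95% interval -0.63 to 0.06) was not called (adjusted p = 0.189).

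Tfap2a, the AP-2 factor of trophectoderm, surface ectoderm and neural crest, had values of 5.14, 5.39 and 4.48 in naïve WT and 4.73, 3.81 and 4.59 in primed WT libraries. The libraries of the WT line overlap. In the mutant line it had 5.48, 5.51 and 5.19 in naïve and 4.44, 4.77 and 4.97 in primed libraries, without overlap and with naïve ESCs higher. The differences were 0.63 (95% interval 0.07 to 1.19, adjusted p = 0.0756) and 0.66 (0.10 to 1.23, adjusted p = 0.0614), neither of them called by limma. They rest on 3 to 25 reads per naïve and 0 to 9 per primed library, and limma-voom on the reads gave 1.86 (adjusted p = 0.0859) and 1.51 (adjusted p = 0.110). Single libraries decide the call: without naïve WT replicate 3 the adjusted p was 0.0169 and 0.0365 in the WT and mutant lines, and without primed WT replicate 2 it was 0.0387 in the mutant line. The means of 4.38 in primed WT and 4.73 in primed mutant ESCs lay under the limit of the filter. Tfap2a thus entered the test through its naïve libraries alone, and its p-values carry that limit.

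HAND1, which drives giant cell differentiation, was at 0 reads in all naïve WT libraries and at 0, 0 and 2 reads in naïve mutant libraries. Primed WT libraries had 42, 22 and 46 reads (6.45, 5.66 and 5.60), and primed mutant libraries 11, 14 and 10 reads (5.25, 5.24 and 5.03). No naïve library reached a primed one. The log2 differences were -2.10 with WT TET2 and -1.23 with mutant TET2, each with an exact two-sided permutation p of 0.1, the smallest that 3 libraries against 3 can give. Hand1 was at least 32.2-fold higher in primed WT than in naïve WT ESCs, and the ratio in the mutant line was 25.7 (95% interval 6.60 to 221). The naïve WT bound allows 3 reads where none was seen and the mutant ratio uses the 2 reads seen, so the 2 folds are not compared with each other. Without naïve WT replicate 2 or 3 the WT bound was 20.7 or 21.0. The bounds here take the primed reads as counted, and the intervals cover counting error only.

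CDX2, the factor that defines the trophectoderm, was near the detection limit in every group. It had 0, 1 and 2 reads in naïve WT, 0 in each naïve mutant, 2, 3 and 7 in primed WT and 7, 16 and 2 in primed mutant libraries. The primed libraries lay above the naïve ones in each line, by -0.40 with WT TET2 and -1.08 with mutant TET2 as naïve minus primed (exact permutation p = 0.1 each). In the WT line that separation rests on scaling for depth. There naïve WT replicate 3 and primed WT replicate 1 each had 2 reads, at log2 values of 4.36 and 4.46. With WT TET2 the read ratio of primed to naïve was 3.52 with an interval of 0.949 to 19.4, which does not exclude equal levels at this depth. With mutant TET2 Cdx2 was at least 12.2-fold higher in primed ESCs, a bound from 25 primed reads of which replicate 2 gave 16. It was 6.81 without that library and 6.83 without naïve mutant replicate 3.

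Elf5 had 0 reads in all 6 naïve libraries, 4, 5 and 8 reads in primed WT and 4, 0 and 6 reads in primed mutant libraries. The primed WT libraries lay above the naïve ones, and 1 primed mutant library had no Elf5 read. The differences were -0.88 (exact permutation p = 0.1) and -0.61 (exact permutation p = 0.4), and the reads summed over groups were at least 4.98-fold and 4.89-fold higher in primed ESCs. The bound of the mutant line rests on 10 reads. With each library left out it was 2.73 to 7.57, with the lowest value without naïve mutant replicate 3, 3.05 without primed mutant replicate 3 and the highest without primed mutant replicate 2. In the WT line it was 3.20 to 5.79, the lowest without naïve WT replicate 2 and 3.25 without replicate 3.

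With mutant TET2, 3 of the 9 genes were called between the media, Gata3, Krt18 and Krt8, all lower in naïve ESCs, where 35.2% of tested genes were called and 16.9% were lower. Without Gata3, which met the limit through its primed libraries alone, the count was 2. The libraries did not overlap for 7 genes, with 6 lower in naïve (21.2% of tested genes were) and Tfap2a higher (22.3%), and overlapped for Elf5 and Tfap2c. The 6 include Cdx2 and Hand1, which lie outside the tested genes of that share, and Gata3, which had 0 naïve reads. That Gata2 and Tfap2c were called with WT TET2 alone does not show that the lines differ. The interaction of medium and rescue line was -0.71 for Gata2 (95% interval -1.58 to 0.15) and -0.26 for Tfap2c (-0.75 to 0.23). It was -0.79 for Krt8 and -0.74 for Krt18, with an adjusted p of 0.976 for each of these 4 (limma), and Krt8 had an unadjusted p of 0.0372. For Gata3 both naïve groups had 0 reads, so its interaction, -0.56, is the primed difference between the lines with its sign turned and says nothing about the change between media. Of 14185 genes, 0 were called in the interaction by limma or limma-voom (a share of 0%), and 489 and 554 had an unadjusted p under 0.05. Without naïve WT replicate 1 limma called 1 gene.

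The rescue lines were then compared within each medium, to ask whether catalytically active TET2 went with the level of these genes in SETDB1-depleted cells. In naïve ESCs 0 of the 9 genes were called (limma). Of the 6 tested, 0 had an unadjusted p under 0.05, against 1882 of all 14185 tested genes. The libraries of the lines overlapped for all 9, where 8.78% of tested genes lay wholly higher and 8.01% wholly lower in WT. Cdx2, Elf5 and Hand1 lie outside the tested genes of these shares. Same-numbered naïve libraries deviated together and were read as pairs, which the labels do not state. Within these pairs Tfap2a was lower with WT TET2 in 3 of 3, by 0.34, 0.12 and 0.71, while the other 8 genes did not have 1 sign in all pairs. Of tested genes 21.8% were lower and 22% higher with WT TET2 in all 3 pairs. Of all tested genes 0.0987% were called, and these 14 genes became 36 under a replicate block. In the fit without pairs, the differences of WT minus mutant were 0.18 for Tfap2c (95% interval -0.17 to 0.53), -0.16 for Gata2 (-0.77 to 0.45), -0.27 for Krt8 (-0.79 to 0.25), -0.14 for Krt18 (-0.77 to 0.50) and -0.39 for Tfap2a (-0.95 to 0.17). Gata3 and Elf5 had no read in either line. For Gata2 and Krt18 the sign turned without naïve WT replicate 3, to 0.21 and 0.13.

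In primed ESCs 0 of the 9 genes were called by limma or limma-voom, and 0.254% of tested genes were, a count of 36 that became 209 with the replicate block. The WT libraries lay above the mutant libraries without overlap for 4 genes, Gata3, Gata2, Tfap2c and Hand1, against 11.5% of tested genes (10.9% lay wholly lower), and the other 5 overlapped. Hand1 lies outside the tested genes of that share. Gata3 was higher with WT TET2 by 0.56 (95% interval 0.18 to 0.93, limma, adjusted p = 0.204) and Tfap2c by 0.44 (0.10 to 0.79, adjusted p = 0.230). These 2 had an unadjusted p under 0.05, as did 2295 of all 14185 tested genes. Gata2 differed by 0.56 (-0.06 to 1.17, adjusted p = 0.351), Krt18 by 0.61 (-0.03 to 1.24, adjusted p = 0.328) and Krt8 by 0.51 (-0.01 to 1.03, adjusted p = 0.315). Tfap2a differed by -0.35 (-0.91 to 0.21, adjusted p = 0.528). Hand1 differed by 0.73, Cdx2 by -0.38 and Elf5 by 0.26, with exact permutation p-values of 0.1, 0.4 and 0.7. The lines also differ outside these genes, since the 14 Y-linked genes that were tested all had more reads in the WT line, with a median difference of 1.35 in naïve and 1.48 in primed ESCs where the median over all genes was 0.00 and 0.01. The part of that difference in the values above was not tested.

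**Figure D2:**
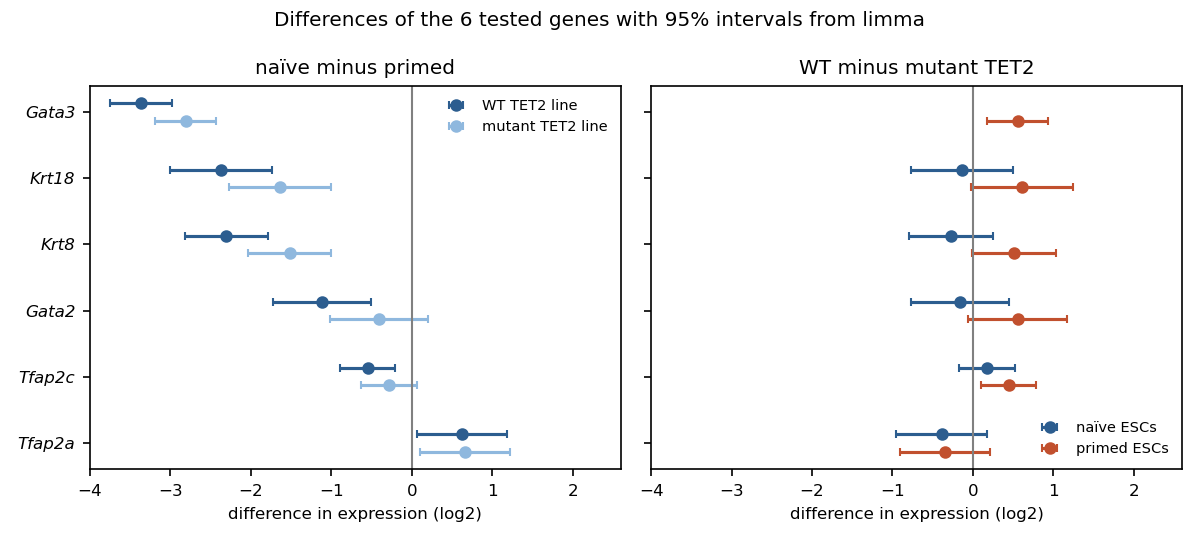
Log2 differences of the 6 tested genes with 95% intervals from limma (n = 3 per group), naïve minus primed in each rescue line on the left and WT minus mutant TET2 in each medium on the right. Naïve Gata3 is left out of the right panel because both lines had 0 reads. The intervals of Gata3, Krt18 and Krt8 lie below 0 in both lines on the left, and Gata3 and Tfap2c are the genes of the right panel whose interval in primed ESCs lies above 0. The intervals are not adjusted for the number of genes tested, and no gene of the right panel was called.

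Levels were compared between genes as reads per kb of exon, scaled to the gene reads of each library (RPKM). In primed WT ESCs Tfap2c came first at 45.8 ± 3.54 (SD, n = 3), followed by Krt18 at 12.1 ± 2.54, Krt8 at 8.38 ± 2.29, Gata3 at 2.59 ± 0.63, Gata2 at 2.52 ± 0.25 and Hand1 at 1.60 ± 0.87. Cdx2 (0.130), Tfap2a (0.0895) and Elf5 (0.0784) followed. The length used is that of all annotated exons of a gene joined. For Elf5 it is 5877 bases, against 2532 in its longest coding transcript. The order of these 3 thus depends on that choice and rests on few reads. The ranges of Krt18 and Krt8 overlapped between libraries, but within each primed library Krt18 was above Krt8, in 3 of 3 primed WT and 3 of 3 primed mutant libraries. In primed WT replicate 1 the values were 10.98 and 10.92. Of the Krt8 stretches 41.9% have a copy elsewhere, and reads placed there are not counted for Krt8. Its RPKM may thus be too low, so the order of the keratins in any group is not settled. Gata3 was above Gata2 in 2 of 3 libraries of each primed group, and Hand1 was below Gata3 in 3 of 3. Hand1 was below Gata2 in 2 of 3 primed WT libraries. In naïve WT ESCs Tfap2c was again first at 30.3 ± 5.29, and Krt18 (1.34 ± 1.08), Gata2 (0.970 ± 0.81) and Krt8 (0.809 ± 0.22) followed with libraries that overlapped. Within naïve libraries Krt18 was above Gata2 in 3 of 3 of each line, and above Krt8 in 2 of 3 WT and 1 of 3 mutant libraries. Tfap2a was at 0.296, Cdx2 at 0.0365, and Gata3, Hand1 and Elf5 were at 0. The mutant line had Tfap2c at 26.9 ± 3.85 in naïve and 32.6 ± 3.15 in primed ESCs, Krt18 at 1.40 ± 0.22 and 7.55 ± 3.27, and Krt8 at 1.20 ± 0.47 and 5.38 ± 1.68. In each group Tfap2c stood above all libraries of the other genes, and in naïve ESCs it was the single gene of the 9 above 3 RPKM.

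**Figure D3:**
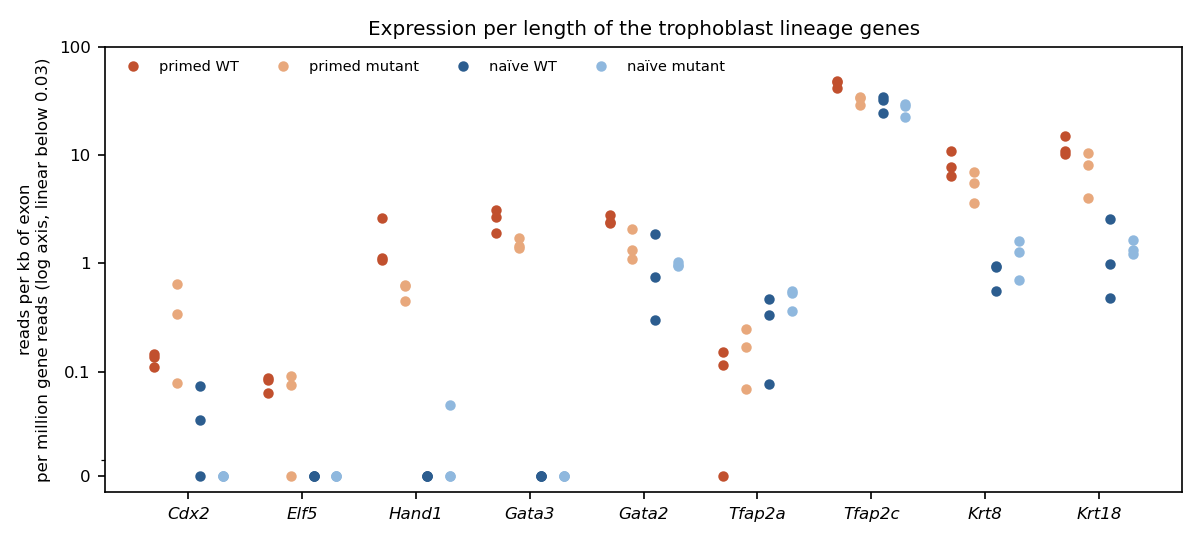
Expression per length of the 9 genes, in RPKM on a log axis that is linear near 0, with a point for each library coloured by group. Tfap2c lies above the other genes in every library, Gata3 is at 0 in all naïve libraries, and the keratins stand at 3.63 or more in all primed and at 2.55 or less in all naïve libraries.

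The genes whose pattern was most like that of each tested gene were taken as those with the smallest root mean square difference of mean-centred log2 values over the 12 libraries. For Krt8 they were Rhof (0.21), Kctd15 (0.22) and Spnb4 (0.24), and for Krt18 Plcd1 (0.26), Gramd3 (0.28) and Rhof (0.29). Gata2 was most like Nuak1 (0.18), Efs (0.20) and Anxa6 (0.22), and Tfap2a like Gem (0.20), 1110032F04Rik (0.20) and Limd2 (0.23). Tfap2c was left out, since its 4 group means span less than 1, and so was Gata3, whose naïve libraries all stand at the value of 0 reads. Rhof appears for each keratin.

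The other genes of the lineage were counted as fixed lists. Of 17 trophectoderm and trophoblast stem cell genes, 15 were tested. With WT TET2 11 were called lower and 2 called higher in naïve ESCs, where 35.9% of all tested genes were called and 17.3% were called lower. The median difference was -1.42, and 0.01 over all tested genes. With mutant TET2 8 were called lower and 3 higher, against 35.2% and 16.9% of all tested genes, with a median of -0.69. Msx2, called lower in each line, met the filter through its primed libraries alone. The largest differences with WT TET2 were those of Rhox6 (-2.95), a placental homeobox gene, Sox21 (-2.71), Rhox9 (-2.45) and Fgfr2 (-2.37), the receptor through which FGF4 maintains trophoblast stem cells. In the mutant line these were -1.88, -2.42, -1.20 and -1.48, and Id2 differed by -2.17. The genes called higher in naïve ESCs in both lines were Ets2 (0.73 and 0.84) and Tead4 (1.18 and 1.19), the factor that acts upstream of Cdx2. Plet1, a surface protein of trophoblast progenitors, was called higher in the mutant line by 1.09 and differed by 0.39 in the WT line without a call.

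Paralogues of the 9 genes were called in both directions. Of 19 listed, 9 were tested, and 4 were called lower and 3 higher in naïve WT ESCs, where 35.9% of all tested genes were called. In the mutant line 2 were called lower and 2 higher, 4 of 9 against 35.2% of all tested genes. The median difference was 0.08 with WT TET2 and -0.15 with mutant TET2. Krt19, a further keratin of simple epithelia, differed by -1.78 and -1.44, and Gata1, the erythroid GATA factor, by -1.53 and -0.97. Elf4 was higher in naïve ESCs, by 1.13 and 1.32. Cdx1 was higher too, by 2.62 with WT TET2 and 1.49 with mutant TET2 (limma, adjusted p = 2.17e-07 and 6.89e-05), with 194 reads over the naïve WT and 1 over the primed WT libraries, where Cdx2 had 3 and 12. Krt19 and Gata1 met the filter through their primed libraries alone, and Cdx1 through its naïve ones. Their calls, which are part of the counts in each line, carry that limit. Tfap2b, Tfap2d, Gata5 and Krt23 had 0 reads in all 12 libraries.

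Of 15 listed genes of placental differentiation, 12 had too few reads for the fit. Tpbpa, Prl3d1, Prl3b1 and Ctsq, markers of spongiotrophoblast, giant cells and labyrinth, had 0 reads in all 12 libraries. Gcm1, the factor that drives formation of syncytiotrophoblast, was read in primed ESCs alone, with 0 reads in the 6 naïve libraries, 24, 22 and 52 in primed WT and 19, 29 and 16 in primed mutant libraries. The groups did not overlap, and Gcm1 was at least 28.7-fold and 31.3-fold higher in primed ESCs (18.4 or 18.7 without naïve WT replicate 2 or 3, and 17.5 without naïve mutant replicate 3). Syna, which encodes the fusion protein syncytin A, had 27 reads over primed WT and 2 over naïve WT libraries, a ratio of 11.9 (95% interval 2.98 to 103), and 5 and 2 reads in the mutant line (3.67, interval 0.601 to 38.5). The other 6 genes had at most 27 reads in any library, and among them Psg17 and Synb went the other way. Psg17 had 2 reads over naïve WT and 9 over naïve mutant libraries, and 0 in all primed libraries. In the mutant line it was at least 2.04-fold higher in naïve ESCs. Synb had 4 naïve and 2 primed reads in the WT line (ratio 2.27, 95% interval 0.326 to 25.1). In the mutant line it had 11 and 2 (3.75, interval 0.818 to 34.8), and neither interval excludes equal levels. The 3 tested genes are imprinted and were all called lower in naïve ESCs in each line, where 17.3% and 16.9% of all tested genes were. Peg10, a retrotransposon-derived gene needed for the placenta, differed by -6.04 with WT TET2 and -4.94 with mutant TET2, Phlda2 by -1.16 and -1.29, and Cdkn1c by -0.81 and -0.83. Peg10 was also higher with WT than with mutant TET2 in primed ESCs, by 1.14 (limma, adjusted p = 0.0303), the single call of a listed pathway gene between the lines. That call was lost when any of the 3 primed WT libraries, primed mutant replicate 1 or primed mutant replicate 3 was left out, and in the 6 primed libraries alone.

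The 15 Hippo and Notch genes that act upstream of Cdx2 were all tested. With WT TET2 6 were called lower and 3 higher in naïve ESCs (median -0.39), where 35.9% of all tested genes were called. With mutant TET2 5 were called lower and 4 higher (median 0.11), against 35.2%, and in each line 6 of the 15 were not called. Wwtr1, which encodes the YAP relative TAZ, was higher by 1.80 and 1.52 and Tead4 as given above, whereas Rbpj, the Notch transcription factor, differed by -1.03 and -1.21. Amotl2, an inhibitor of YAP, differed by -1.04 and -0.83, and Yap1 itself by -0.80 and -0.83.

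Of 12 epithelial junction genes, all tested, 8 were called lower and 1 higher in naïve WT ESCs (median -0.82), and 6 were called lower and 2 higher in the mutant line (median -0.53). Of all tested genes, 17.3% and 16.9% were called lower and 35.9% and 35.2% called in either direction. Cldn6 differed by -2.24 and -1.91, Jup, the plakoglobin gene, by -1.29 and -1.30, and Ocln by 1.19 and 1.01. With WT TET2 the count of 9 fell to between 4 and 5 without naïve WT replicate 2, naïve WT replicate 3, primed WT replicate 1 or primed WT replicate 3.

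All 8 BMP target genes were called in each line, 7 of them lower in naïve ESCs, with medians of -1.33 and -1.47. Of all tested genes, 35.9% and 35.2% were called and 17.3% and 16.9% were called lower. Id3 differed by -3.14 with WT TET2 and -4.01 with mutant TET2, Id1 by -3.02 and -3.45, Id2 by -1.91 and -2.17, and Msx2 by -1.42 and -1.48. These genes encode inhibitors of bHLH factors and a homeobox factor. Msx1 was higher in naïve ESCs, by 1.16 and 0.74. Id1 and Msx2 met the filter through their primed libraries alone, and Msx1 through its naïve ones, so their calls carry that limit. Without naïve mutant replicate 1 the count in the mutant line was 5.

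**Figure D4:**
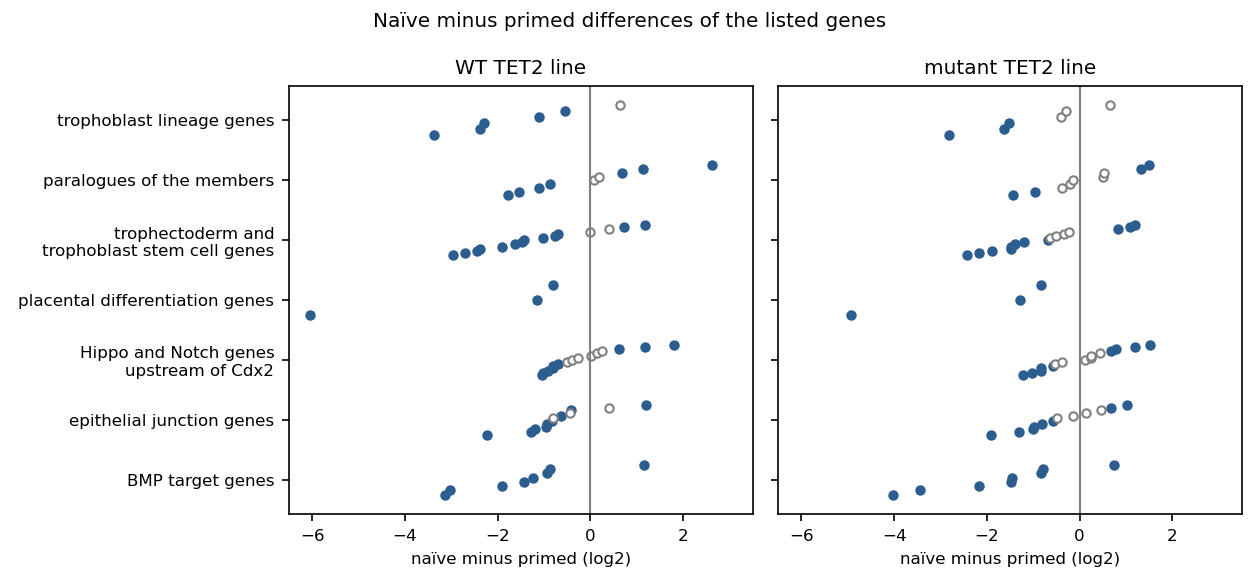
Log2 differences of naïve from primed ESCs for the tested genes of each list, with WT TET2 on the left and mutant TET2 on the right. Filled points were called by limma at an adjusted p under 0.05 and open points were not. All 8 BMP target genes are filled in both panels, and the leftmost placental point is Peg10 at -6.04 and -4.94.

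Markers of other cells were counted in the same way. Of 12 primitive endoderm markers, 6 were tested and 2 were called in each line, Col4a1 (-2.17 and -1.27) and Dab2 (-1.47 and -0.85), both lower in naïve ESCs, with Ttr at 0 in all libraries. Dab2 met the filter through its primed libraries alone. A count of 2 of 6 is at the share over all tested genes, 35.9% with WT and 35.2% with mutant TET2. Their summed level was 347 to 880 normalised reads in naïve WT, 395 to 823 in naïve mutant, 485 to 962 in primed WT and 526 to 739 in primed mutant libraries. Of 9 mesoderm markers, 2 were tested and called in each line, Lefty2 (4.08 and 3.29) and Eomes, which is also a trophoblast stem cell gene (-1.62 and -1.39). Of 6 germ cell markers, 3 were called with WT TET2, Dazl (2.96) and Dppa3 (1.01) higher and Prdm1 (-1.06) lower, and 2 with mutant TET2, Dazl (2.23) and Ddx4 (-0.82). Of the 12 pluripotency markers, Tfcp2l1 (2.33), Prdm14 (1.64), Klf5 (0.81) and Nanog (0.57) were called higher and Zfp42 (-0.94) lower in naïve WT ESCs. In the mutant line the called genes were Tfcp2l1 (2.77), Prdm14 (1.63), Klf5 (0.94) and Zfp42 (-1.29), and Nanog differed by 0.40 (limma, adjusted p = 0.137). The pluripotency counts, 5 and 4 of 12, and the germ cell count with mutant TET2, 2 of 6, also lie near the shares over all tested genes. The part of these shifts in the values of the trophoblast genes was not tested.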

How the data were processed

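Poly(A) mRNA-seq libraries were single-end with 75-base reads and kept no strand. The authors trimmed reads with Trim Galore 0.3.3, aligned them to mm9 with TopHat2 2.0.9, placing a read with several equal positions at random, counted reads per gene, and deposited log2 values after the variance-stabilising transformation of DESeq2. Inverting the transformation gave whole reads for 100% of the values (tolerance 0.01), which were used for depth, RPKM and limma-voom. A second table, of repeat classes, was not used here.

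All 12 libraries were fitted as 4 groups with limma 3.58.1 (R 4.3.3) and an intensity trend, with adjustment over 14185 of 26061 genes. Genes under the filter were compared by exact permutation (two-sided). Folds against a group at 0 reads use a floor of 3 reads over the group, and intervals are 95%. Python 3.11.15, numpy 2.4.6, pandas 2.3.3, scipy 1.17.1 and matplotlib 3.10.9 were used, with blastn 2.17.0 for transcript stretches that occur elsewhere in mm9. The fit was run on simulated counts as a check of the code. These had the same spread setting for all genes, no pairing of libraries and no changed genes of few reads. That run does not bear on pairing or on genes of few reads. Gene positions come from GENCODE vM1, and promoters from RefSeq (GRCm38.p6).

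The 9 genes and the lists were chosen with earlier results of these data known. From each other list the counts were given, with at most 4 called genes of the largest difference named, and Nanog, Yap1, Msx1, Ets2, Plet1, Tead4 among the trophoblast genes, Pou5f1 and the listed genes under the filter, outside that rule, were named after their values were seen. All 140 listed symbols were found in the table, 10 of them by an older symbol. Same-numbered libraries deviated together between the lines in naïve ESCs (mean correlation over genes 0.42, lowest 0.30, over 3 pairs), where they were read as pairs though the labels name no pairing, and not in primed ESCs (0.0950) or between media (0.12 and -0.0906). The settings varied were the filter, the variance trend, centring, a replicate block, limma-voom, fits of 6 libraries, the call rule and the libraries included, each left out in turn.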

Additional observations from a re-analysis of the deposited data

How the results depend on the processing

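The count of the 9 genes called between media with WT TET2 was 5. It was 7 with no filter, 1 when the mean had to lie at least 3 above the lowest value, a filter that leaves fewer of the genes in the test, and 4 to 5 with each library left out. With mutant TET2 the count of 3 became 6 with no filter and 0 with the stricter filter, and was 3 to 4 with each library left out. With no filter the genes of few reads entered the limma fit and were called for Elf5 (-0.88, adjusted p = 0.00369) and Hand1 (-2.10, adjusted p = 4.29e-06) with WT TET2, and for Cdx2 (-1.08, adjusted p = 0.00125), Elf5 (-0.61, adjusted p = 0.0294) and Hand1 (-1.23, adjusted p = 5.63e-04) with mutant TET2. The naïve libraries of these comparisons stand at or near the value of 0 reads, with little or no spread, so these calls depend on that value. For Elf5 with mutant TET2, with 4, 0 and 6 primed reads, exact permutation gave p = 0.4. The counts between the lines and in the interaction were 0 under every alternative.

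The difference of Elf5 between the lines in primed ESCs was -0.0446 to 0.43 with each library left out. The interaction of Tfap2a, -0.04, was 0.35 with limma-voom and 0.27 with limma-voom on total reads, and -0.32 to 0.22 with each library left out. Between the lines in naïve ESCs, Gata2 was -0.55 to 0.21 and Krt18 -0.46 to 0.13 with each library left out. The cause of these turns was not tested. The calls of Gata3, Krt8 and Krt18 between media were kept under each alternative that tested them. Tfap2a was also called in the 6 mutant libraries alone (adjusted p = 0.0246).

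The replicate block changed no call of the 9 genes, with 5 and 3 called between media as before. Over all genes it raised the calls between the lines from 14 to 36 in naïve and from 36 to 209 in primed ESCs, and leaving out single libraries gave 5 to 22 and 12 to 82. Centring changed the split in primed ESCs from 29 higher and 7 lower to 27 and 13. Between media, single libraries moved the count from 5095 to 3505 to 5639 with WT TET2 and from 4993 to 3563 to 5199 with mutant TET2. An adjusted p under 0.01 left 3096, 2989, 6 and 13. The comparisons of Cdx2, Elf5, Hand1 and Tfap2a are limited by their few reads.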
